A study of Mus musculus with 12 samples.

Results

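The 3 libraries labelled ND with no treatment, out of 12 in the series, were described on their own, as the transcriptome of hematopoietic stem and progenitor cells (HSPCs) at baseline. They came from wild-type male mice kept for 8 weeks, from 4 to 6 weeks of age, on normal diet (ND), a chow with 0.5% NaCl. The other groups were fed a high salt diet (HSD), underwent intracerebral hemorrhage (ICH), or both. HSPCs were sorted from bone marrow by c-kit and Sca-1 on cells without CD127 or lineage antigens (Lin-CD127-c-kit+Sca-1+), where the Lin antibodies included those to CD3e, CD8a, Gr1, B220, CD11b, I-A/I-E, TER-119 and NK1.1. Each ND library was pooled from 3 independent animals, and the study counts the pools as biological replicates. A spread between libraries is therefore a spread between pools. No groups were compared, and no test was run. Values given in threes are those of ND 1, ND 2 and ND 3 in that order.

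HSPCs sit at the top of blood formation. A few long-term stem cells in this gate divide rarely and renew themselves, and multipotent progenitors, which make up most of it, divide often and already transcribe genes of the lineages they will enter. The receptor tyrosine kinase c-kit and the surface protein Sca-1 (gene Ly6a) define the gate, and Flt3 and CD34 mark the progenitors within it that have left the long-term stem cell state. Bulk RNA from such a gate averages over these cells, so that fewer cells of a type and less RNA per cell cannot be told apart.

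The deposited values are CPM, the reads of a gene times 1 factor per library set by the authors, for 20792 genes. Over these genes they summed to 973072, 912140 and 926179, so the libraries were not at an equal sum. An equal sum would multiply them by 0.963, 1.027 and 1.012. TMM, the normalization named in the methods, would multiply them by 0.990, 1.001 and 1.008 over the ND libraries. ND libraries held 13874826 to 14594254 reads in these genes, in the middle of the 8678304 to 27491973 reads over all 12 libraries. CPM compares a gene between libraries, but long genes collect more reads than short ones. Levels of different genes were therefore compared as CPM per kilobase (kb) of exon. The choice of the listed genes was not made on ND cells alone. Genes at 0 reads numbered 1393 to 1570 in ND libraries, and 2 to 29 in the 6 libraries after ICH against 1393 to 1755 in the 6 without. At least 1 CPM in all 3 ND libraries was reached by 14966 genes, at least 10 CPM by 9185, at least 100 CPM by 1376 and at least 1000 CPM by 46. Of 15363 listed protein-coding genes, 11807 (76.9%) reached 1 CPM, 8316 (54.1%) reached 10 CPM and 817 had no read in any ND library. Counts of list members given below are to be read beside these shares. The mice were male, and the Y-linked genes Ddx3y (56.7, 50.1 and 58.8 CPM) and Eif2s3y (29.7, 37.2 and 33.3 CPM) were present, and Xist was at 1.52 to 2.73 CPM.

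Protein-coding genes took 63.5%, 64.7% and 63.6% of the CPM sum. Non-coding RNA took 31.2%, 29.98% and 31.0% (30.7% ± 0.653, SD, n = 3), from 3019 listed genes. Small and structural RNAs made the largest piece with 17.3%, 16.7% and 17.5%, ahead of long non-coding RNA with 7.17%, 7.08% and 7.36% and mitochondrial rRNA and tRNA with 6.70%, 6.21% and 6.17%. Pseudogenes took 2.61%, 2.55% and 2.47%, and genes without an entry in the annotation 2.29%, 2.28% and 2.44%. The 3 libraries thus had the same order of classes, as the plot of RNA classes shows.

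**Figure D1:**
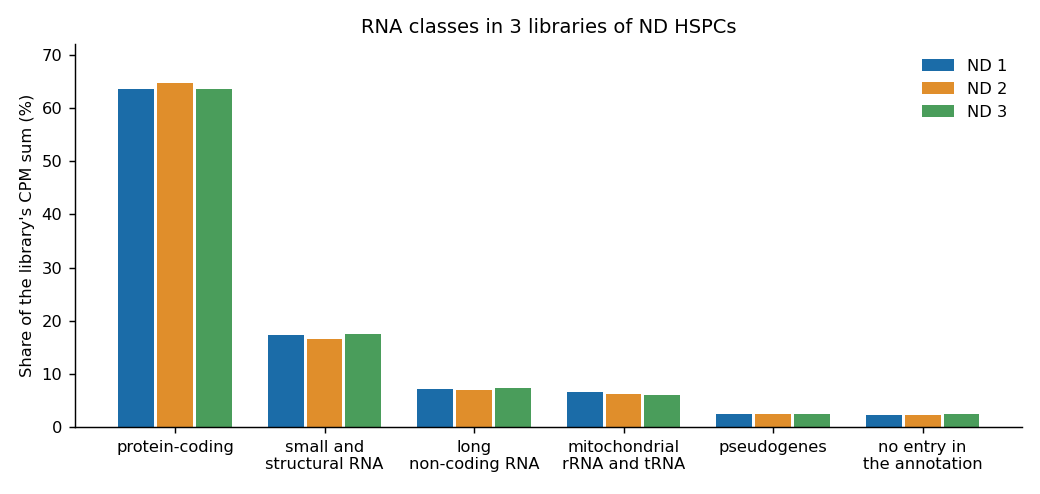
Share of the CPM sum (y axis, %) taken by each class of RNA (x axis) in the 3 ND libraries, 1 bar per library. Protein-coding genes took 63.5% to 64.7%, and small and structural RNAs 16.7% to 17.5%.

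The non-coding share rested on few genes. The 10 highest non-coding genes held 83.2%, 81.2% and 82.0% of it, whereas the 10 highest protein-coding genes held 3.62%, 3.32% and 3.41% of the protein-coding sum. Among the 10 were both mitochondrial ribosomal RNAs, mt-Rnr2 (46085, 39949 and 40537 CPM) and mt-Rnr1 (18385, 16164 and 16007 CPM). They also held RNA parts of cellular machines. Rn7s1 (26244, 22996 and 24927 CPM) and Rn7s2 (26185, 23839 and 24663 CPM) encode 7SL, the RNA of the signal recognition particle. Rpph1 (13142, 14839 and 12589 CPM) is the RNA of RNase P, and Rn7sk (11987, 13439 and 12492 CPM) is 7SK, which holds back the elongation factor P-TEFb. Malat1, a nuclear long non-coding RNA, had 5678, 6387 and 6670 CPM. The remaining 3 of the 10 were Gm23935 (62835, 47679 and 56822 CPM), Gm26917 (34136, 30761 and 33920 CPM) and Gm42418 (7970, 5993 and 6617 CPM). Gm26917 and Gm42418 lie side by side on chromosome 17 and are annotated as long non-coding RNA. What RNA the reads of these 3 genes came from was not tested. The shares of small and of long non-coding RNA are thus shares of annotated classes.

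Gm23935, annotated as a miRNA, was the highest gene of all, and its sequence is shown because it sets how the value can be read. The same 57 bases are annotated a second time as Gm24270, and Gm24187 differs from them at 1 base, which is in capitals. In the annotation 3 genes hold these 57 bases, of which 2 are listed in the files. Gm23935 lies on chr16:11144125-11144181 (plus strand), Gm24270 on chr9:56223715-56223771 (minus strand) and Gm24187 on chr13:9834469-9834525 (minus strand) of GRCm38, all 5′ to 3′ from GENCODE M21.
Gm23935: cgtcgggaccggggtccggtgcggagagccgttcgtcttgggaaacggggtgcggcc
Gm24270: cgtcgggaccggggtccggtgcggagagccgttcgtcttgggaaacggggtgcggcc
Gm24187: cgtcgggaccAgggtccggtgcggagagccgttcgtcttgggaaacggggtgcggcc
These sequences are rich in G and C, with 73.7% for the identical copies. The copies had unlike values, as Gm24270 had 1658, 2203 and 2889 CPM, 24.8 times less on average than Gm23935, and Gm24187 had 182, 160 and 143 CPM. ND 1 was highest for Gm23935 and Gm24187 and lowest for Gm24270. How reads that fit several places were counted is not given in the sources used here, so the value of a single copy is uncertain. The sum of Gm23935 and Gm24270 was 64493, 49882 and 59711 CPM. The same holds for 11 further sets of identical genes, among them Rn7s1 with Rn7s2 (300 bases, 52429, 46835 and 49590 CPM together) and 7 genes of U1 small nuclear RNA that share 164 bases (7633, 7359 and 7924 CPM together).

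Reads of protein-coding genes were spread over many genes. The top 100 held 15.7%, 14.8% and 14.9% of the protein-coding sum, and the top 1000 held 47.9%, 47.2% and 47.2%. The most abundant by reads was Eef1a1, the elongation factor that brings aminoacyl-tRNA to the ribosome, with 3553, 3394 and 3258 CPM. It was followed by mt-Co1, a subunit of cytochrome c oxidase (2982, 2532 and 2547 CPM), and by the chaperones Hspa8 (2335, 2260 and 2510 CPM) and Hsp90ab1 (2333, 2066 and 2388 CPM). The other genes of the top 10 were mt-Atp6, Rpsa, Actb, the histone genes Hist1h2ao and H2ac7, and Mpo. Mpo encodes myeloperoxidase, the peroxidase of granulocyte granules, and had 2006, 1317 and 1122 CPM. It was the only top 10 gene with a coefficient of variation (CV, SD over mean) above 10%, at 31.4%. The proliferation marker Mki67 reached 1017, 988 and 1035 CPM, and the transcription factor Myb 783, 710 and 771 CPM.

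Per kb of exon the order changed, and 7 of the 20 highest protein-coding genes were also among the 20 highest by CPM. Genes of the mitochondrial genome and short histone genes led. The highest were mt-Atp8 (3526 CPM per kb on average), Hist1h2ao (3313), H2ac7 (2703), mt-Atp6 (2643) and H2ac4 (2635). Eef1a1 stood at rank 11 on this scale and Mpo at rank 52. Some of these values cannot be assigned to 1 gene. Ccdc107, at rank 17 by CPM, had 1275, 1084 and 1248 CPM, and Rmrp, the RNA of RNase MRP that overlaps it on the opposite strand, had 1265, 1071 and 1236 CPM. H2ac18 (778, 721 and 658 CPM) and Gm20633 (781, 723 and 661 CPM) form a like pair, and so do H2ac19 (763, 696 and 648 CPM) and Gm20632 (765, 698 and 650 CPM). The reads of such pairs were not told apart, and the use of strand in counting is not given in the sources used here.

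Genes of protein synthesis and histone genes took a similar part of the protein-coding sum in each library. The 79 genes of cytosolic ribosomal proteins held 5.68%, 5.37% and 5.35%, 66 replication-dependent histone genes 3.67%, 3.44% and 3.39%, and 27 translation factors 2.47%, 2.38% and 2.32%. Their medians were 203, 185 and 182 CPM per kb for ribosomal proteins, 335, 298 and 294 for histones and 64.8, 67.5 and 64.5 for translation factors. The median over all listed protein-coding genes was 3.46, 3.40 and 3.39 CPM per kb. Of the 55 lists with listed genes, 37 had a median above it in the mean of the libraries. The plot of list medians orders most of them.

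**Figure D2:**
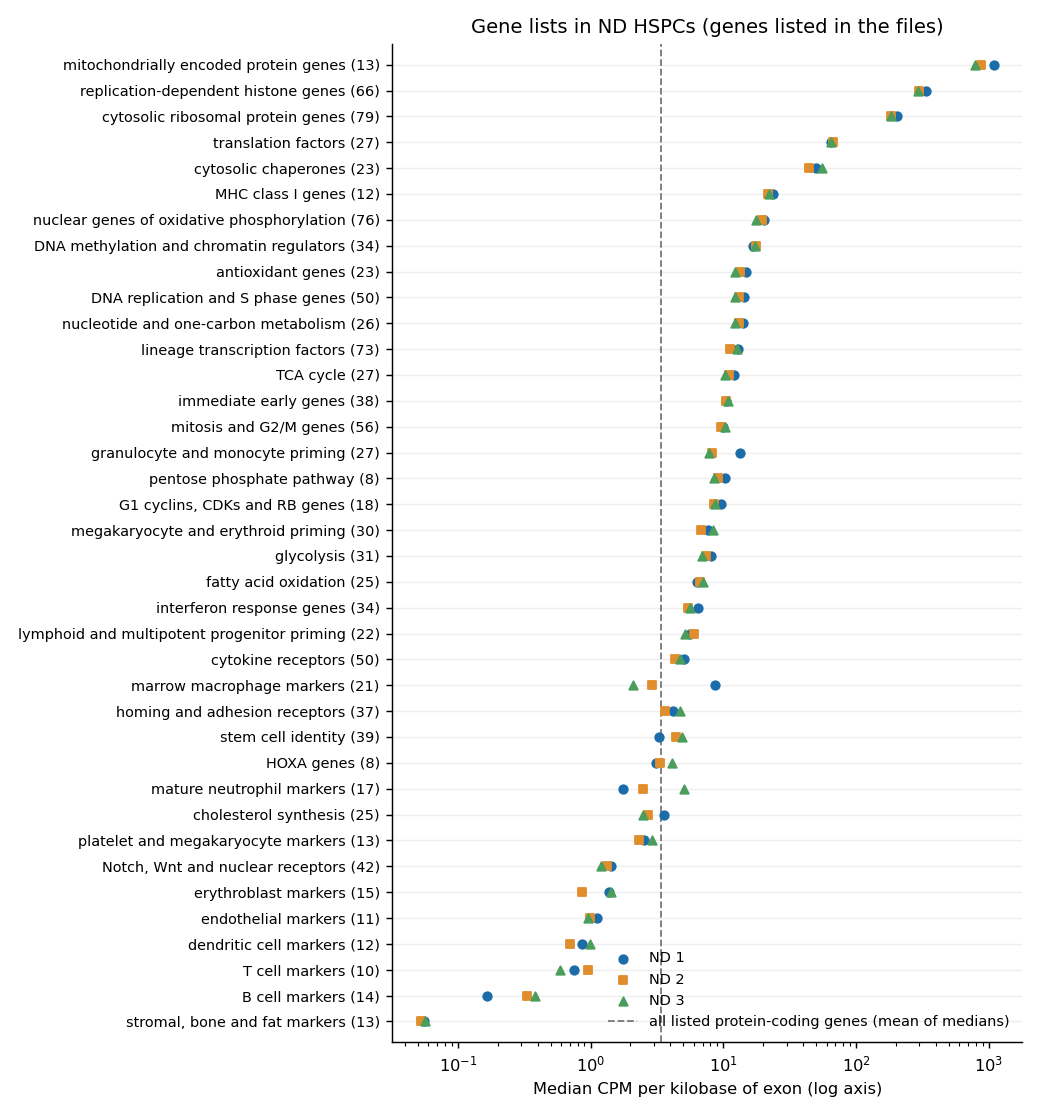
Median CPM per kb of exon (x axis, log scale) of gene lists (rows, number of listed genes in brackets) in the 3 ND libraries, with the median of all listed protein-coding genes as a dashed line. Mitochondrially encoded, histone and ribosomal protein genes stand highest, and stromal, bone and fat markers lowest.

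The antigens of the sort were unequal at the RNA level. Kit had 437, 448 and 441 CPM and Cd34 353, 353 and 346 CPM. Flt3, the receptor tyrosine kinase of multipotent progenitors, had 279, 287 and 267 CPM. Per kb these 3 genes were close to each other, at 49.6, 48.1 and 45.0 CPM per kb on average. Ly6a, which encodes the Sca-1 antigen for which the cells were positive, had 6.72, 6.25 and 5.01 CPM from 96, 95 and 79 reads. Its mean of 4.97 CPM per kb was above the median of all listed protein-coding genes, but its rank by CPM was 9809 of 15363. Of the antigens for which the cells were sorted as positive, Ly6a was thus below Kit by CPM in all 3 libraries, and per kb on average. Ly6a belongs to a cluster of similar genes on chromosome 15, so its value is uncertain where counting could split their reads. In the same family Ly6c2 had 16.9, 10.3 and 7.23 CPM, Ly6c1 had 0.63, 0.789 and 0.127 CPM, and Ly6e was at 52.5 CPM per kb.

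Antigens that the sort selected against were mostly low. Of 14 genes for the lineage antigens and CD127, 10 were listed, 7 reached 1 CPM and 3 reached 10 CPM in all 3 libraries. The highest was Ptprc (249, 269 and 268 CPM), which encodes CD45 of all white blood cells. B220 is an isoform of CD45 on B cells, and gene-level reads do not separate it. The others were Itgam, the gene of CD11b (24.1, 23.1 and 25.3 CPM), and H2-Ab1 of I-A (16.5, 14 and 19.9 CPM). Il7r, the gene of CD127, had 4.13, 3.94 and 1.97 CPM, and Klrb1c of NK1.1 had 0.560, 0.526 and 0.381 CPM. Cd3e, Cd8a and Ly6g were not analysed here.

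Genes of stem cell identity covered a wide range. Of 39 listed, 34 reached 1 CPM and 24 reached 10 CPM in all 3 libraries, with a median of 3.30, 4.37 and 4.89 CPM per kb. The highest was Adgrg1, an adhesion receptor of stem cells also known as Gpr56, with 753, 793 and 804 CPM (145 CPM per kb on average). Txnip, which binds thioredoxin and limits glucose uptake, had 242, 273 and 348 CPM. Among the transcription factors of this list, Meis1 (22.7 CPM per kb), Hlf (24.1) and Gata2 (26.6) were above the median of all listed genes. Meis1 had 210, 254 and 254 CPM, Hlf had 136, 171 and 176 CPM and Gata2 had 139, 129 and 164 CPM. Mecom, a transcription factor of long-term stem cells, had 31.4, 44.3 and 49.3 CPM. ND 1 was the lowest for Meis1, Hlf and Mecom, and the other libraries differed less from each other.

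Markers of the rarest stem cells were near the lower end. Procr, the protein C receptor, had 5.74, 8.87 and 10.4 CPM. Slamf1, which encodes CD150, had 2.10, 4.67 and 4.19 CPM. Hoxb5, a homeobox gene of long-term stem cells, had 0.560, 0.723 and 0.888 CPM. Fgd5 was higher, at 13.7, 15.6 and 17.1 CPM. Cd48 (42.6, 36.4 and 35.5 CPM) and Cd27 (83.9, 83.4 and 91.9 CPM), surface proteins of progenitors that long-term stem cells largely lack or carry less of, exceeded Slamf1 per kb as well, at 32.1 and 37.1 against 0.593 CPM per kb.

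**Figure D3:**
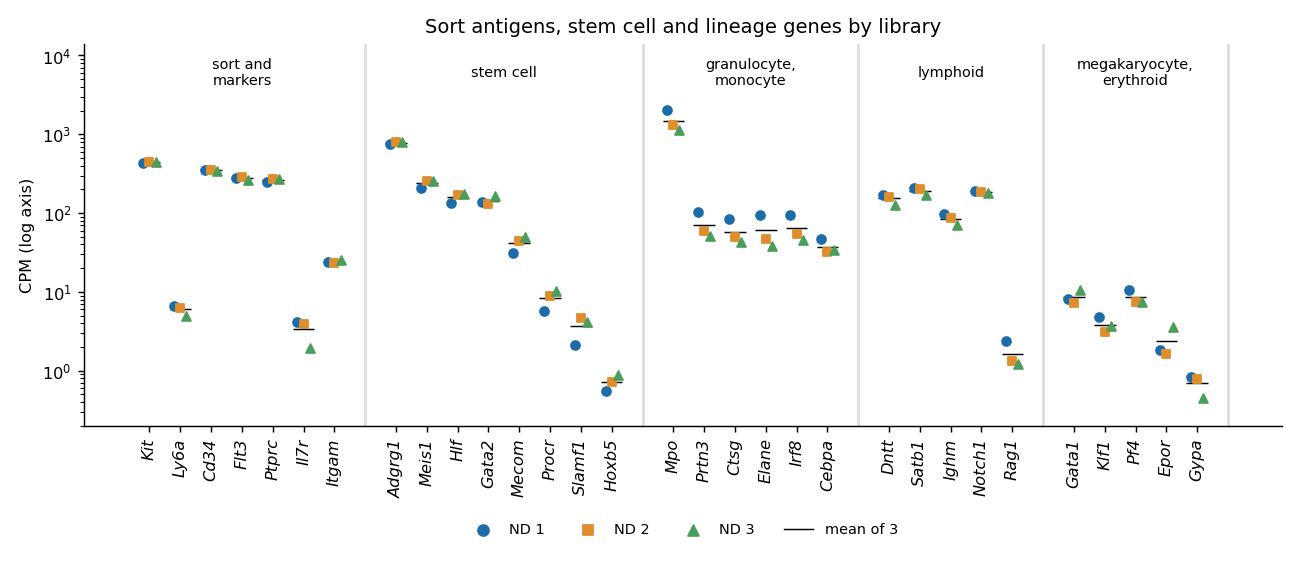
CPM (y axis, log scale) of sort antigens, stem cell genes and lineage genes in the 3 ND libraries, with a bar at their mean. Kit, Cd34 and Flt3 lie between 267 and 448 CPM, Ly6a between 5.01 and 6.72 CPM, and ND 1 is the highest library for Mpo, Prtn3, Ctsg, Elane, Irf8 and Cebpa.

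HOX genes pattern the body axis and act in blood stem cells and leukemia. In ND HSPCs they were read from the HOXA and HOXB clusters. All 8 listed HOXA genes reached 1 CPM and 3 reached 10 CPM. Hoxa9 was at 38.6, 38.9 and 46.5 CPM and Hoxa7 at 31.6, 27.7 and 28.7 CPM. Of 5 listed HOXB genes none reached 10 CPM, and Hoxb4 was the highest per kb, at 2.84 CPM per kb. None of 18 HOXC and HOXD genes was listed. Among the TALE proteins that bind DNA together with HOX proteins, Meis1 and Pbx genes were present, whereas Pknox2 had 0 reads in all 3 libraries, which allows up to 0.210, 0.197 and 0.190 CPM (3 reads each, for counting error only).

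Genes of all main lineages were read. The granulocyte and monocyte list had a median of 13.3, 8.22 and 7.77 CPM per kb. It held 19 of 27 genes at 10 CPM or more (70.4%, beside 54.1% of all listed protein-coding genes). Mpo led it at 433 CPM per kb, and Calr, Srgn and Plac8 followed. The serine proteases of primary granules came next, Elane with 94.96, 47.5 and 38.8 CPM, Prtn3 with 104, 58.6 and 50.9 CPM and Ctsg with 83.1, 49.2 and 42.6 CPM. Irf8, a transcription factor of monocyte and dendritic cell fate, had 94.1, 54.4 and 45.3 CPM. Csf1r, the receptor of M-CSF, had 43.9, 22.3 and 22.2 CPM. For all 5 genes ND 1 was above both other libraries. Csf3r, the receptor of G-CSF, had the opposite order, with 160, 168 and 183 CPM. The transcription factors Cebpa (46.4, 32.5 and 34.1 CPM) and Spi1 (53.9, 49.6 and 47.9 CPM) differed less.

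Genes of lymphoid priming were read as well. The median of 22 listed genes was 5.61, 5.98 and 5.14 CPM per kb. Of them 11 reached 10 CPM (50%), near the 54.1% of all listed protein-coding genes. Dntt, the terminal transferase that adds bases at antigen receptor joints, had 172, 161 and 128 CPM. Ighm, the immunoglobulin mu chain, had 97.6, 86.4 and 71.1 CPM. Satb1, a chromatin organiser of early lymphoid cells, had 207, 203 and 170 CPM. ND 3 was lowest for all 3 genes. Notch1, a receptor of T cell fate, had 190, 186 and 182 CPM. The recombinase genes that cut antigen receptor loci stayed low, Rag1 with 2.38, 1.31 and 1.21 CPM and Rag2 with 4.06, 4.21 and 3.62 CPM.

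Of 30 listed megakaryocyte and erythroid genes, 16 reached 10 CPM (53.3%), near the 54.1% of all listed protein-coding genes. This list had a median of 7.64, 6.76 and 8.31 CPM per kb. Car2, carbonic anhydrase, led it with 155, 177 and 196 CPM. Gata1, the main erythroid and megakaryocyte transcription factor, had 8.05, 7.23 and 10.7 CPM. Klf1 had 4.76, 3.09 and 3.68 CPM and Epor, the erythropoietin receptor, 1.82, 1.64 and 3.62 CPM. Pf4, a platelet chemokine, had 10.7, 7.43 and 7.55 CPM. Per kb Gata1 (3.55 CPM per kb) was below Gata2 (26.6 CPM per kb). Of 14 listed genes of basophils, mast cells and eosinophils only Cpa3, a mast cell protease at 19.02 CPM per kb, reached 10 CPM in all 3 libraries.

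Of 73 listed lineage transcription factors, 64 reached 1 CPM and 56 reached 10 CPM. The highest per kb was Lmo2, a bridge in complexes of GATA and SCL proteins, at 313, 305 and 315 CPM (144 CPM per kb). Myc had 288, 247 and 269 CPM (98.6 CPM per kb), and Myb was at 84.5 CPM per kb. Runx1, which is needed for blood stem cells to arise, had 242, 253 and 265 CPM. The CV was 1.81% for Lmo2, 4.59% for Runx1, 5.18% for Myb and 7.61% for Myc.

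Among 50 cytokine receptor genes, 42 reached 1 CPM and 33 reached 10 CPM. Kit, Csf3r and Flt3 were the highest per kb, at 49.6, 47.1 and 45.0, ahead of the interferon receptor genes Ifnar2 (21.97) and Ifngr1 (20.1 CPM per kb). Of 37 homing and adhesion receptors 23 reached 10 CPM. Cxcr4, the receptor that holds HSPCs in the marrow, had 60.7, 50.1 and 55.5 CPM, and Itga4, a subunit of the integrin VLA-4, had 338, 317 and 320 CPM. Pattern recognition receptors were lower, with 6 of 22 genes at 10 CPM and a median of 1.19, 0.862 and 0.611 CPM per kb. The DNA sensor Cgas led them at 8.44 CPM per kb. Tlr4, the receptor of lipopolysaccharide, had 8.19, 9.07 and 9.39 CPM, Tlr2 had 4.97, 4.08 and 3.49 CPM, and Tlr9 had 1.33, 0.723 and 0.698 CPM. Of 42 listed Notch, Wnt and nuclear receptor genes 16 reached 10 CPM, with Notch2 the highest at 22.96 CPM per kb. Ppara, a nuclear receptor of lipid metabolism, had 0 reads in all 3 libraries, which allows the same 0.190 to 0.210 CPM as above.

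Genes of dividing cells were read throughout. All 50 DNA replication and S phase genes reached 10 CPM in all 3 libraries, with a median of 14.3, 13.0 and 12.3 CPM per kb. So did 54 of 56 mitosis and G2/M genes, with a median of 9.97, 9.59 and 10.3 CPM per kb. Mcm6, a subunit of the replicative helicase, had 428, 404 and 373 CPM, and Pcna, the polymerase clamp, had 148, 149 and 129 CPM. Top2a, which untangles chromosomes before division, had 478, 470 and 462 CPM. The kinases that open the cycle in G1 were high as well. Cdk6 had 416, 376 and 378 CPM and Cdk4 had 142, 131 and 115 CPM, or 27.9 and 39.9 CPM per kb. Of the D cyclins that bind them, Ccnd2 (18.1 CPM per kb) and Ccnd3 (11.4) were above Ccnd1 (4.46). Of 6 listed CDK inhibitors only Cdkn1b, the gene of p27, reached 10 CPM, with 59.6, 58.1 and 66.5 CPM. Cdkn1c, the p57 gene of quiescent stem cells, had 1.61, 1.91 and 2.48 CPM, and Cdkn1a, the p21 gene, had 9.52, 6.97 and 5.46 CPM. Cdkn2a and Cdkn2b were not analysed here.

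Energy metabolism showed both routes. The 76 nuclear genes of oxidative phosphorylation had a median of 20.4, 19.5 and 17.7 CPM per kb, 27 genes of the TCA cycle 11.98, 11.1 and 10.3, and 31 listed genes of glycolysis 8.07, 7.37 and 6.94. Mitochondrial genes stood far higher, as 13 mitochondrially encoded protein genes had a median of 1091, 869 and 790 CPM per kb and together with mitochondrial rRNA and tRNA took 8.17%, 7.49% and 7.42% of the CPM sum. The leading glycolytic gene was Pkm, pyruvate kinase, at 59.4 CPM per kb. Ldha, the lactate dehydrogenase of lactate production, had 163, 143 and 127 CPM, and Ldhb had 12.7, 14.3 and 13.2 CPM. The ND libraries thus held Ldha above Ldhb by reads and per kb (43.6 against 8.53 CPM per kb). Of the hexokinases, Hk1 had 145, 133 and 143 CPM, Hk3 had 90.1, 71.0 and 66.5 CPM and Hk2 had 54.4, 47.4 and 41.4 CPM. The glucose transporters were Slc2a3 (44.7, 53.4 and 61.7 CPM) and Slc2a1 (13.9, 13.02 and 15.04 CPM).

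Of 25 fatty acid oxidation genes 21 reached 10 CPM, with a median of 6.35, 6.72 and 6.98 CPM per kb. Cpt1a, which brings fatty acids into mitochondria, had 109, 88.1 and 103 CPM, and its muscle form Cpt1b had 4.76, 2.96 and 3.87 CPM. All 8 genes of the pentose phosphate pathway reached 10 CPM, with Tkt the highest at 38.2 CPM per kb. Cholesterol synthesis had one of the lower medians among the metabolic lists, at 3.58, 2.71 and 2.48 CPM per kb over 25 genes. Nucleotide and one-carbon metabolism was at 14.1, 13.1 and 12.2 over 26 genes, led by Impdh2, the rate-limiting enzyme of guanine nucleotide synthesis, at 57.0 CPM per kb. Single genes stood out from their lists. Gpx1, a glutathione peroxidase, was at 195 CPM per kb against a median of 14.8, 13.3 and 12.3 for 23 antioxidant genes. Ftl1, the ferritin light chain, was at 149 CPM per kb against 6.13, 6.09 and 6.31 for 19 genes of iron and heme handling.

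Interferon response genes were present without treatment, as all 34 listed reached 1 CPM and 22 reached 10 CPM, with Ifitm2 the highest at 79.3 CPM per kb. The 12 MHC class I genes had a median of 23.7, 21.8 and 22.1 CPM per kb, led by B2m at 428, against 4.996, 5.25 and 4.79 for 9 class II genes. Of 38 listed immediate early genes, which are induced within minutes of a stimulus and also by cell handling, 26 reached 10 CPM. Jun had 333, 369 and 346 CPM, Fos 120, 171 and 165 CPM and Egr1 72.9, 88.6 and 61.3 CPM.

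Markers of cells outside the gate were checked as whole lists. Of 14 listed B cell markers 6 reached 1 CPM and none 10 CPM, with sums of 23.1, 38.3 and 32.5 CPM. Of 10 listed T cell markers 1 reached 10 CPM, with sums of 38.4, 44.0 and 41.4 CPM. Of 13 listed stromal, bone and fat markers only Runx2 (133, 144 and 143 CPM) and Pdgfrb (60.2, 61.4 and 59.0 CPM) reached 1 CPM, and Col3a1 and Acan had no read in any ND library. Macrophage markers were present in another way. Lyz2, shared with granulocytes and monocytes, was the highest of 21 listed on average with 60.6, 64.4 and 66.1 CPM, but the list sum was 674, 271 and 235 CPM. Defining markers were above 0 in all 3 libraries, as Adgre1, the gene of F4/80, had 10.6, 2.76 and 2.22 CPM, Cd5l had 17.6, 6.90 and 3.81 CPM and C1qb had 22.1, 4.93 and 4.06 CPM. The 15 listed erythroblast markers summed to 383, 156 and 125 CPM, and Hba-a1 had 85.2, 30.3 and 19.8 CPM. The 17 listed neutrophil markers summed to 317, 342 and 419 CPM.

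Differences between the libraries were small for most genes. For 8626 protein-coding genes with a mean of at least 10 CPM the median CV was 6.62%. The CV expected from counting reads alone had a median of 4.35%. This expected value is the counting SD over the mean. With 3 libraries a CV from counting error alone falls below it more often than above, so these medians are not like measures. The CV was under 10% for 74.5% of these genes, above 25% for 128 and above 50% for 25. It was lower at higher levels up to 300 CPM, and higher again above that. Between 1 and 3 CPM the median CV was 23.9% beside 19.4% for counting alone, between 30 and 100 CPM it was 6.02% beside 3.71%, and at 1000 CPM and more 8.5% beside 0.716%. Non-coding genes of at least 10 CPM (554 genes) had a median CV of 8.51%. The least variable of the 8626 protein-coding genes were Zfp518a, Tob2, Sp1, Ppp5c, Kat14, Zfp638, Dcps and Txnrd1, whose CV of 0.180% to 0.248% was below that of counting alone for each of them. This was so for 2221 of the 8626 genes (25.7%), so that these lowest values do not show a steadier level.

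**Figure D4:**
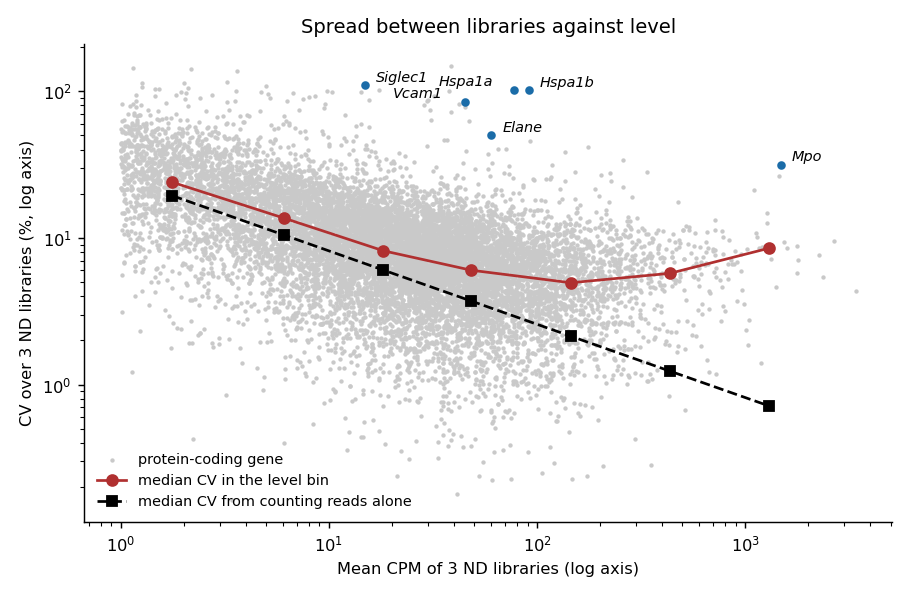
CV over the 3 ND libraries (y axis, %, log scale) against the mean CPM (x axis, log scale) of protein-coding genes, grey points. The red line is the median CV in bins of level. The dashed black line is the median of the CV expected from counting reads alone (counting SD over mean). Siglec1, Hspa1a, Hspa1b and Vcam1 lie above 80%.

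The libraries were not equally alike. Over the same genes, ND 3 and ND 2 had a Pearson correlation of 0.992 of log2 CPM, ND 2 and ND 1 of 0.988 and ND 3 and ND 1 of 0.982, given as a description across genes. A difference of more than 2-fold was found for 8 genes between ND 3 and ND 2, for 25 between ND 2 and ND 1 and for 38 between ND 3 and ND 1. ND 1 was more than 2-fold above both others for 18 genes, ND 2 for 1 and ND 3 for 5. ND 1 thus stood apart the most.

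Those 18 genes included markers of macrophages and red cells. Siglec1, the sialic acid receptor of marrow macrophages, had 33.9, 6.44 and 4.57 CPM. Vcam1, the ligand of VLA-4, had 88.7, 25.6 and 20.6 CPM, and Hmox1, which breaks down heme, had 58.6, 18.6 and 11.4 CPM. Axl, a receptor for the uptake of dead cells, had 70.3, 25.5 and 19.6 CPM, and Hbb-bs, adult beta globin, had 80.3, 22.5 and 10.03 CPM. Elane was also among the 18. Summed over all listed members, macrophage markers differed 2.87-fold between the highest and the lowest library, erythroblast markers 3.07-fold, the granulocyte and monocyte list 1.53-fold, neutrophil markers 1.323-fold and stem cell identity 1.21-fold. The erythroblast sum did not stand for the whole list, whose median was 1.39, 0.869 and 1.44 CPM per kb. Of its 12 members with a mean of at least 1 CPM, ND 1 was the highest for 8 and ND 3 for 4.

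In ND 1 the order of several lists went together. It was the highest library for 16 of 17 macrophage markers and 24 of 27 granulocyte and monocyte genes with a mean of at least 1 CPM, and the lowest for 27 of 36 stem cell identity genes. Over all 12162 protein-coding genes of that level, it was the highest for 5501 and the lowest for 3696, and ND 3 was the highest for 3661 (30.1%). ND 3 was the highest for 13 of 15 neutrophil markers and for 23 of 36 stem cell identity genes. The part of the macrophage and erythroblast RNA in the other orders was not tested. Other counts moved with the scaling. ND 1 was the highest for 72 of 78 ribosomal protein genes and 41 of 50 S phase genes with the deposited values, for 70 and 40 after TMM over the ND libraries, and for 59 and 29 after the libraries were brought to the same CPM sum. The same-sum scaling made ND 1 the highest library for 3509 and the lowest for 5601 of these 12162 genes. With that scaling the orders of the macrophage (16 of 17), granulocyte and monocyte (24 of 27) and neutrophil (13 of 15) lists had the same counts, and ND 1 was lowest for 28 of 36 stem cell identity genes.

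**Figure D5:**
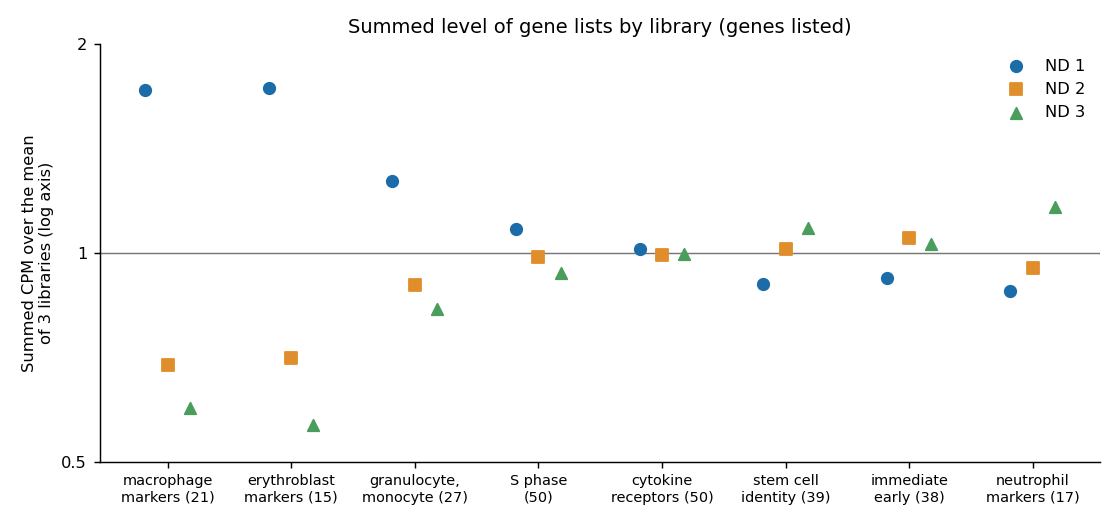
Summed CPM of 8 gene lists (x axis, number of listed genes in brackets) in each ND library over the mean of the 3 libraries (y axis, log scale). ND 1 is highest for macrophage, erythroblast, and granulocyte and monocyte genes, and ND 3 is highest for stem cell identity and neutrophil genes.

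A few heat shock genes, picked after their values were seen, were highest in ND 3. Hspa1a, the stress-induced Hsp70, had 8.82, 60.02 and 164 CPM, and its near-identical neighbour Hspa1b had 9.59, 72.4 and 193 CPM. Hsph1, a partner of Hsp70 that exchanges its nucleotide, had 114, 158 and 258 CPM, and Dnaja1, its J-domain partner, had 172, 223 and 283 CPM. All 4 were lowest in ND 1 and highest in ND 3. Reads of Hspa1a and Hspa1b could be split by the counting, and Gm20481, which overlaps Hspa1a on the opposite strand, had 2.03, 13.3 and 37.1 CPM. The 23 listed cytosolic chaperones summed to 10018, 9525 and 10673 CPM, and ND 3 was the highest library for 9 of them and ND 1 for 13 (11 and 8 at the same CPM sum), beside 30.1% and 45.2% of all protein-coding genes (32.8% and 28.9% at the same CPM sum). Hspa8, with a CV of 5.43%, and Hsp90ab1, with 7.61%, differed less. Hsp90aa1 (1043, 1078 and 1268 CPM) had a CV of 10.7% and the same order of libraries as the 4 genes above.

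The promoters of Hspa1a, Hspa1b and Hsph1 are shown because these genes moved together across the libraries. For each gene a promoter that holds the motif marked below was taken, so its presence in them was set by the choice. Dnaja1 also has a promoter with the motif, which is not shown. Each promoter shown runs from 250 bases before to 50 bases after the start of the gene, from RefSeq on GRCm38.p6, 5′ to 3′ along the gene. All lie on the minus strand, at chr17:34972107-34972406 for Hspa1a, chr17:34959189-34959488 for Hspa1b and chr5:149636266-149636565 for Hsph1. Capitals mark GAANNTTC, inverted repeat letters of the heat shock element that heat shock factors bind.
Hspa1a: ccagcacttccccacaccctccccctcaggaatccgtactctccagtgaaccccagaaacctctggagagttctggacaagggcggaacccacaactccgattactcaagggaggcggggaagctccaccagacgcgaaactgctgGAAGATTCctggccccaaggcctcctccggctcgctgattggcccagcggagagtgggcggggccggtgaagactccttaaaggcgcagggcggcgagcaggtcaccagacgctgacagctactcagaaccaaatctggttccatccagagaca
Hspa1b: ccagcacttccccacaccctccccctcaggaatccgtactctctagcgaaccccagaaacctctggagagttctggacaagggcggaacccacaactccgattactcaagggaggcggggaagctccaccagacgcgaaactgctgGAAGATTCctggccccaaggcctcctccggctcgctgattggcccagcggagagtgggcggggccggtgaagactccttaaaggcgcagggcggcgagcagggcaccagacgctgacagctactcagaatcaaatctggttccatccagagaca
Hsph1: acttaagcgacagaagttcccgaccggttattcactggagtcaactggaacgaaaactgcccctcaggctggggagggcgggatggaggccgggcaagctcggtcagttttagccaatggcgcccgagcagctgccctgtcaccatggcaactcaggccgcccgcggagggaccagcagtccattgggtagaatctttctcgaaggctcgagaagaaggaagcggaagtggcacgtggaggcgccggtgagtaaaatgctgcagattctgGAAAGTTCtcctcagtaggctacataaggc
The motif reads the same on both strands. It begins 104 bases before the start in Hspa1a and Hspa1b, and after the start in Hsph1. It was found in 2582 of 32851 promoters of this length (7.86%), and in 8 of 25 promoters of chaperone genes. These belong to 7 of the 18 chaperone genes with a promoter. The 7 are Hspa1a, Hspa1b, Hsph1, Dnaja1, Cct2, Hspd1 and Hspe1, and the promoters of Hspa1a and Hspa1b are nearly the same sequence. Whether the motif goes with the order of the libraries was not tested. A match is a description of letters and not a bound site.

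Several genes of mature neutrophils were also highest in ND 3. Ltf, lactoferrin, had 6.02, 8.55 and 21.5 CPM, Ngp had 8.89, 12.2 and 25.8 CPM, and S100a9, a calcium-binding protein of mature neutrophils, had 7.14, 11.1 and 22.1 CPM. These are markers of late granulocytes and went against the order of Elane, Prtn3 and Ctsg, the protease genes of early granulocytes, which were highest in ND 1. In ND 2 a single gene was more than 2-fold above both others, Gm10800, with 5.25, 105 and 5.46 CPM, and Rnaset2a was the gene more than 2-fold below both, with 56.8, 24.8 and 54.6 CPM.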

How the data were processed

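HSPC libraries were made by the authors with miRNeasy Micro and the SMART-Seq Stranded Kit and sequenced as 150-base paired reads. Reads were aligned to mm10 with Rsubread 1.32.4, counted with featureCounts and normalized by TMM in edgeR 3.24.3. The deposited values are CPM. The methods name a minimum of 10 CPM reached by 3 samples or more, but the files list genes below it. Dividing each ND value by what 1 read is worth in its library gave whole numbers (tolerance 0.01), the reads per gene.

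Biotypes and exon lengths came from GENCODE M21, which held 20550 of the 20792 IDs and named 182 of the 423 without a symbol. The CV that counting alone gives is the square root of the Poisson variance over the mean, and covers counting error only. It is an expected size and not the median CV of 3 libraries, which would be lower. Gene lists and members were chosen with earlier results of these data known. Genes named are the 20 highest protein-coding genes by CPM and by CPM per kb, the 10 highest non-coding genes, sort antigens and markers, the 4 highest per kb of each list, members whose role is described, the 8 highest and 8 lowest CVs, and genes more than 2-fold apart in 1 library. The calculation of the CV was checked on simulated data, and no groups were tested. Python 3.11.15, pandas 2.3.3, numpy 2.4.6, matplotlib 3.10.9, R 4.3.3 and edgeR 4.0.16 (TMM over ND libraries only) were used. Some genes of the named sets are not reported here.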

Additional observations from a re-analysis of the deposited data

How the results depend on the processing

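Other settings were compared with the values above, and no test was involved. Ranked per kb instead of by CPM, 7 of the 20 highest protein-coding genes stayed (19 to 20 with 1 library left out). The 10 highest genes held 25.8% of the CPM sum over all classes (25.5% to 26.3% with 1 library left out), and 3.45% when only protein-coding genes were ranked. The non-coding share was 26.02% without mitochondrial rRNA and tRNA and 33.7% with pseudogenes and loci to be experimentally tested (30.5% to 31.1% with 1 library left out). Of the lists, 37 lay above the median of all protein-coding genes, 35 with transcript length in place of exon length and 36 to 37 with 1 library left out. At 10 CPM 9185 genes were detected and at 1 CPM 14966 (15140 to 15283 with 1 library left out). The median CV was 8.23% from 1 CPM and 9.76% over all genes with reads. With 1 library left out it was 4.49% to 6.74%, lowest without ND 1. A median CV from fewer libraries tends to come out lower, so this range is not on the same footing as the value from 3 libraries. On the log2 scale the median SD was 0.0939, 0.0953 and 0.0926 with a pseudocount of 0.5, 0.1 and 1. Scaling the libraries to the same sum and by TMM over ND libraries gave median CVs of 6.60% and 6.53%, and the use of these scalings for the order of libraries within lists was chosen after seeing the data. No paired analysis was possible because no result comes from a test and no groups were compared.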

Other observations

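Among genes without an entry in GENCODE M21, ENSMUSG00000103057 had 11370, 11168 and 12437 CPM in ND 1, ND 2 and ND 3, and ENSMUSG00000045999 had 6782, 5517 and 6114 CPM. Gm11505, which overlaps Mpo on the opposite strand over 5361 bases, had 1083, 674 and 596 CPM, in the same order of libraries as Mpo.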
